A study of Mus musculus with 9 samples.

Results

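Zinc finger genes whose names begin with Zfp, Zbtb, Zscan or Zkscan followed by a number were examined in RNA sequencing of embryonic day 12 mouse cortex. Every gene of such a name was taken from the authors' 3 tables of differential expression. 34 of the 1030 genes in those tables qualified, and the mouse annotation GENCODE M21 holds 492 genes with such names, 465 of them protein-coding. The study compared 3 groups of 3 cortices, from 2 litters per the series text, and the labels do not assign embryos to litters. Embryos of all 3 groups carried Emx1 Cre/+, which expresses Cre recombinase from a locus active in progenitors of the dorsal telencephalon. WT embryos were Zbtb7a +/+, conditional heterozygotes (cHet) Zbtb7a fl/+ and conditional knockouts (cKO) Zbtb7a fl/fl. No group without Cre is among the labels, and Emx1 is not active in every cell of a dissected cortex, so undeleted cells are part of each sample.

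C2H2 zinc finger proteins are the largest family of mammalian transcription factors. Each finger is a short fold in which a pair of cysteines and a pair of histidines hold a zinc ion, and fingers in a row read neighbouring bases of DNA. The prefix of a name tells only part of the domain content. Zbtb proteins add a BTB domain for dimerization and corepressor binding, Zscan proteins a SCAN domain for pairing with other SCAN proteins, and Zkscan proteins SCAN together with KRAB. KRAB is a repressor domain that recruits the corepressor Trim28 and, through it, the histone methyltransferase Setdb1. Many Zfp genes encode KRAB proteins, and these lie in tandem clusters that have expanded separately in each mammalian lineage. Many of them silence transposable elements.

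The coding stretch of the first finger is shown for the 4 genes that were in both tables involving cHet, because these genes carry the comparison across groups. Capitals mark the codons of the zinc-binding residues, cysteine and histidine. Zfp606, Zkscan17 and Zbtb20 have the C2H2 spacing, while Zfp36l1 has the CCCH spacing of an RNA-binding finger. The letters are those of the GENCODE M21 transcripts on GRCm38, the assembly of mm10, and lie at chr7:12493250-12493312 on the plus strand for Zfp606, chr11:59487459-59487521 on the minus strand for Zkscan17, chr16:43610865-43610927 on the plus strand for Zbtb20 and chr12:80110189-80110248 on the minus strand for Zfp36l1.
Zfp606: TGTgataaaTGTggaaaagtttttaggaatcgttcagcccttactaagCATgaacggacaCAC
Zkscan17: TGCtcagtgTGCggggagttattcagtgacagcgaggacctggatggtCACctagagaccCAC
Zbtb20: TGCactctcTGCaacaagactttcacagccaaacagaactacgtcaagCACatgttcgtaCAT
Zfp36l1: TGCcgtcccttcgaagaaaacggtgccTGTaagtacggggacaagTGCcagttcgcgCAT

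Most of the genes lower in cHet than in cKO encode KRAB, so its core is shown for 3 of them (Zfp606, Zfp943 and Zfp932) and for 1 that was higher (Zfp84). Capitals mark the codons for aspartate and valine that open this stretch and the glutamate and tryptophan codons inside it. The stretches lie on the plus strand at chr7:12489588-12489677 for Zfp606, chr17:21990797-21990886 for Zfp943, chr5:110006962-110007051 for Zfp932 and chr7:29775356-29775445 for Zfp84 (GRCm38).
Zfp606: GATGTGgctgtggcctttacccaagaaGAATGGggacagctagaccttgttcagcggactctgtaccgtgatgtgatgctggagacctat
Zfp943: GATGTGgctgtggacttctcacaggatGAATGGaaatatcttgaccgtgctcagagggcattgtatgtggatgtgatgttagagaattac
Zfp932: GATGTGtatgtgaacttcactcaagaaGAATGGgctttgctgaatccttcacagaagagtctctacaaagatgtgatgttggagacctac
Zfp84: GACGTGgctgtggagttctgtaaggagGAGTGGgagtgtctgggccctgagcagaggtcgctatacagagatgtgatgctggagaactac

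Each table gives the log2 fold change as cHet over WT, cKO over WT or cHet over cKO, its standard error (SE) and an adjusted p from the authors' DESeq2 test, for genes with an adjusted p under 0.05. Such genes are called listed. The SE, from 3 libraries per group, is the only error available, because values and depths of single libraries were not analysed here. An unlisted gene may have missed the threshold or not been tested. Zbtb7a itself (chr10:81135220-81152995) was listed in none of the 3 tables, nor were its closest relatives Zbtb7b and Zbtb7c, so its expression gives no check of the genotype labels. Genes of other cell types and states were listed alongside. Of 20 ventral telencephalon markers, 7 were listed as lower in cHet against WT and 7 against cKO. Of 15 early neuron markers, 5 and 6 were lower, and of 15 cortical radial glia markers 5 were higher and 1 lower in each of these comparisons. Against cKO, 5 of 15 endothelial and pericyte markers were higher and 2 of 15 erythroid and macrophage markers lower, with 0 of either list against WT. The chromosome Y gene Eif2s3y had fitted log2 values of -24.80 against WT and -23.04 against cKO in the authors' deposited table, and the labels give no sex. The part of cell composition and of sex in the values below was not tested. In bulk samples, fewer cells of a type and less RNA per cell cannot be told apart.

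Between cKO and WT, where Cre can delete both alleles or none, 0 of the 465 zinc finger genes were listed. The authors listed 4 genes in all, 0.0148% of the 26976 in the adjustment. To be listed as well, another gene needed a statistic beyond 4.43 in size. At the median SE of the zinc finger genes listed for cHet against cKO, 0.19, this is a log2 change of 0.85. Smaller differences would not have been listed at that SE. The SEs of these genes ran from 0.11 to 0.37, so the change needed differs by gene.

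In cHet against WT, the list held 4 zinc finger genes, of which 2 were higher and 2 lower in cHet. Zbtb20 and Zfp606 were lower, and Zkscan17 and Zfp36l1 were higher. The 4 are 0.86% of the 465 protein-coding genes of these names, beside 1.6% of the 15465 genes in the authors' adjustment (0.815% higher and 0.789% lower) and 1.07% of all annotated protein-coding genes. The 1.6% is a share of genes in the adjustment and the 1.07% one of annotated genes, and a count of 4 is near the background.

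Zbtb20 encodes a BTB zinc finger repressor known in mouse for its part in hippocampal and cortical development. The authors' deposited table put cHet over WT at -1.03 (SE 0.28) on the log2 scale, a ratio of 0.490, and the adjusted p of their DESeq2 test was 0.025. Zfp606 encodes a KRAB protein with 13 C2H2 patterns, and by the authors' deposited table stood at -0.61 (SE 0.15), with an adjusted p of 0.013. Zkscan17, also known as Nizp1 for its binding to the histone methyltransferase Nsd1, had 0.44 (SE 0.11) by the same measure of the authors' deposited table and the same adjusted p of 0.013. Zfp36l1 encodes an RNA-binding protein that promotes decay of mRNAs with AU-rich elements. The authors' deposited table gave it 0.39 (SE 0.11), with an adjusted p of 0.036 (authors' DESeq2 test).

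The same 4 genes were listed against cKO. The authors' deposited table gave log2 changes of cHet over cKO of -0.97 (SE 0.28) for Zbtb20, -0.66 (SE 0.15) for Zfp606, 0.44 (SE 0.11) for Zkscan17 and 0.39 (SE 0.11) for Zfp36l1. The adjusted p in the authors' DESeq2 test was 0.024, 0.0029, 0.0081 and 0.022, in that order, by the authors' deposited table. Both comparisons use the cHet libraries, so the likeness of these values is not independent support.

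Subtracting the fold changes gives the difference of cKO from WT that they imply, if all 3 comparisons come from 1 fit without shrinkage. The implied log2 change of cKO over WT was -0.064 for Zbtb20, 0.053 for Zfp606, 0.0015 for Zkscan17 and 0.0022 for Zfp36l1. Its SE cannot be had exactly without the libraries and is at most 0.40, 0.22, 0.16 and 0.16. The widest 95% intervals run from -0.84 to 0.71 for Zbtb20, from -0.37 to 0.47 for Zfp606 and from -0.31 to 0.31 for both Zkscan17 and Zfp36l1. All 4 intervals include 0, and that of Zbtb20 is the widest. The genes were picked here for being listed against both groups.

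**Figure D1:**
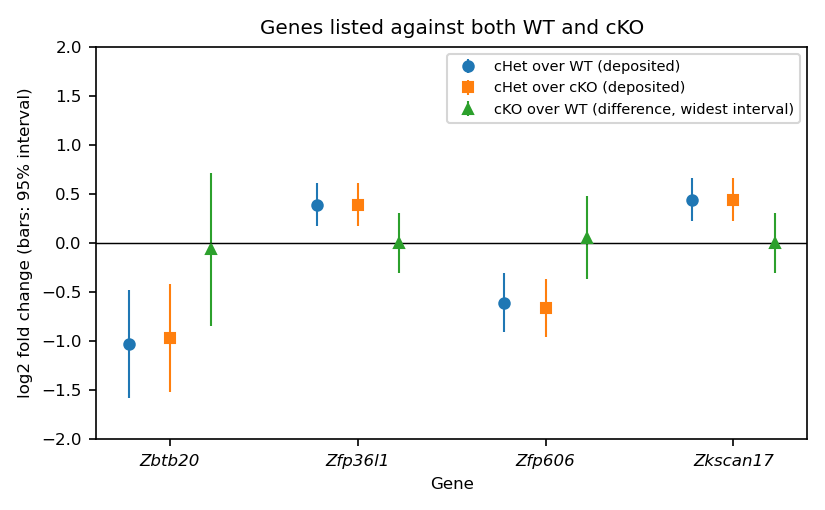
Log2 fold changes (vertical axis) of the 4 genes listed against both WT and cKO, for cHet over WT (circles), cHet over cKO (squares) and the implied cKO over WT (triangles), with 95% intervals as bars (3 libraries per group). Circles and squares lie on the same side of 0 for each gene, while the triangles lie between -0.064 and 0.053.

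In cHet against cKO, the list held 34 zinc finger genes, with 12 higher and 22 lower in cHet. By prefix these were 10 higher and 20 lower Zfp genes, 2 lower Zbtb genes, 1 higher Zscan gene and 1 higher Zkscan gene. The authors listed 971 genes, 7.26% of the 13375 in the adjustment, with 3.12% higher and 4.14% lower. The 34 are 7.31% of the 465 protein-coding genes of these names, beside 4.09% of all 21951 annotated protein-coding genes. How many of the 465 entered the adjustment is not known, so 7.31% cannot be set against the 7.26%. Both 7.31% and 4.09% are shares of annotated genes, and the difference between them was not tested.

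At an adjusted p under 0.05, the directions split along the KRAB domain. A split by prefix could hardly be looked for, since 30 of the 34 are Zfp genes. Of the 22 lower genes, 20 encode a protein with a KRAB match, and of the 12 higher genes 3 do. The remaining higher genes were 8 C2H2 genes without a KRAB match and Zfp36l1, and the remaining lower genes were Zbtb20 and Zbtb8os. Over the annotation, 8.2% of the 244 KRAB genes of these names were listed as lower and 1.23% as higher, against 0.483% lower and 3.86% higher for the 207 C2H2 genes without KRAB. For all protein-coding genes these shares were 2.19% lower and 1.9% higher. These counts describe the list, and the split by KRAB was made after the values were seen. It was not seen at an adjusted p under 0.01, where the 4 genes left are too few to decide whether it holds. The KRAB genes left there were Zfp606, which was lower, and Zkscan17 and Zfp84, which were higher.

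**Figure D2:**
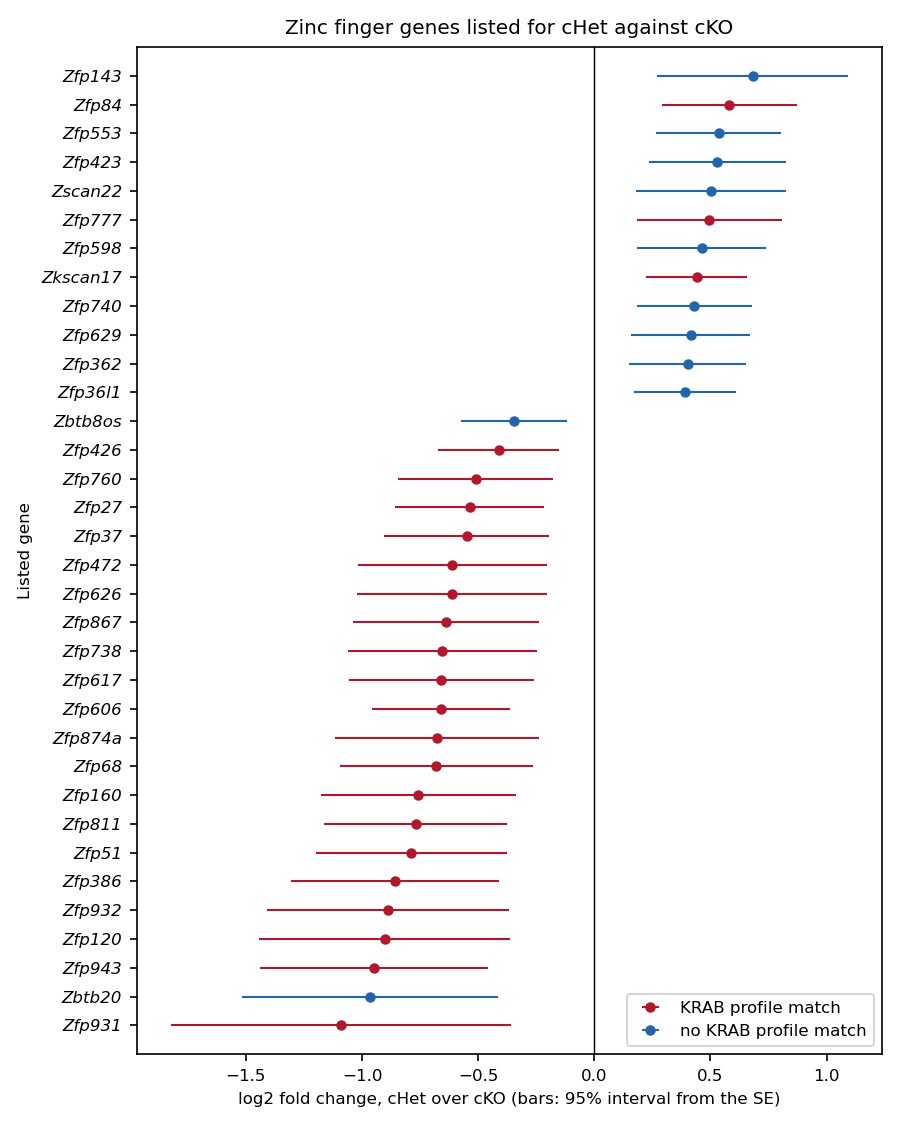
Log2 fold change of cHet over cKO (horizontal axis) for the 34 listed zinc finger genes, as points with 95% intervals computed from the deposited SE (3 libraries per group), coloured by the KRAB match of the protein. The lower genes run from -1.09 to -0.35 and are nearly all KRAB genes, and the higher genes run from 0.39 to 0.68.

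**Figure D3:**
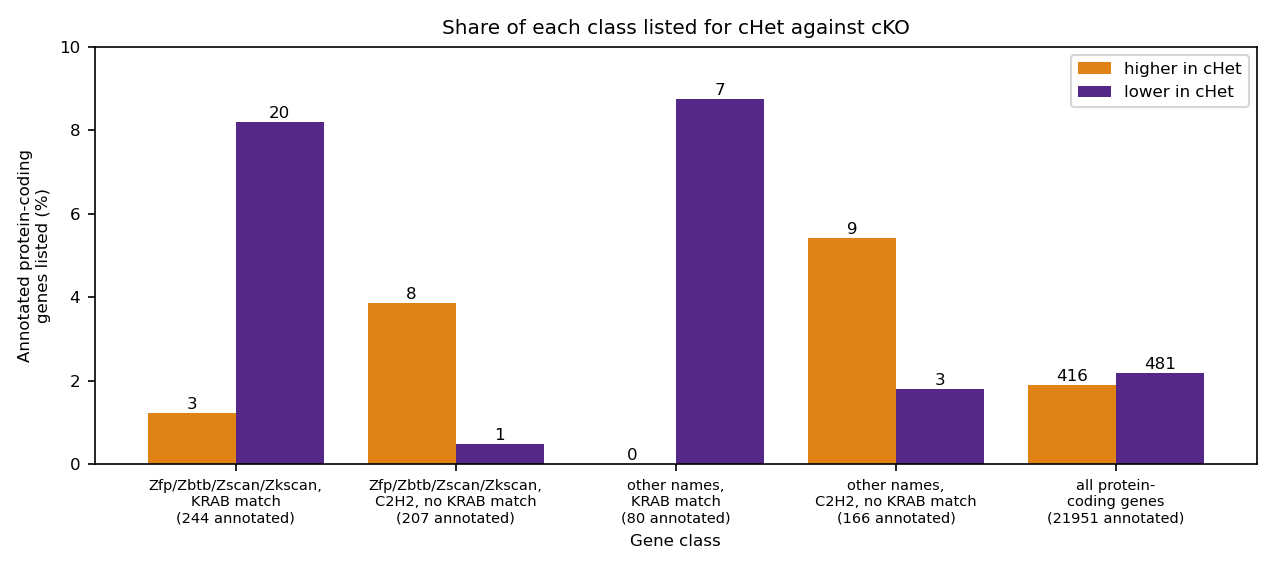
Percentage of annotated protein-coding genes listed as higher (orange) or lower (purple) in cHet than in cKO, by gene class, with the number of genes above each bar. Genes with a KRAB match are listed mostly as lower under either kind of name. They are 20 lower and 3 higher with the Zfp, Zbtb, Zscan or Zkscan prefix and 7 lower and 0 higher with other names. Of the 7, Gm14410, Gm14418, Gm14325 and Gm14326 lie on chromosome 2, as Zfp931 does. Gm14410 and Gm14325 closely match Zfp931 and may share its reads. All bars come from the same libraries, so the names are not independent support.

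Among the lower KRAB genes, log2 changes ran from -1.09 to -0.41 with a median of -0.67, beside -0.80 over all listed protein-coding genes that were lower. Zfp931 had the lowest value, -1.09 (SE 0.37) in the authors' deposited table, and also the largest adjusted p of the 34, 0.049 in the authors' DESeq2 test. Its 95% interval runs from -1.82 to -0.36. Zfp606 had the smallest adjusted p, 0.0029, with an interval from -0.96 to -0.36 around its deposited value. The smallest SE of the lower KRAB genes, 0.13, was that of Zfp426, which also had their smallest decrease.

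Within the KRAB genes, the next largest decreases in the authors' deposited table were -0.95 (SE 0.25) for Zfp943, -0.90 (SE 0.28) for Zfp120, -0.89 (SE 0.27) for Zfp932 and -0.86 (SE 0.23) for Zfp386. Zfp51 had -0.79 (SE 0.21), Zfp811 -0.77 (SE 0.20) and Zfp160 -0.76 (SE 0.21) in the authors' deposited table. With an adjusted p of 0.012 for both Zfp811 and Zfp943, and 0.013 for Zfp51 and Zfp386, these followed Zfp606 in the authors' DESeq2 test. For most of these genes a target sequence or function is not stated here, since names and domains alone do not give one.

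Smaller decreases made up the rest of the KRAB group. The authors' deposited table gave -0.68 for Zfp68 (SE 0.21) and Zfp874a (SE 0.22), -0.66 (SE 0.20) for Zfp617, -0.65 (SE 0.21) for Zfp738, -0.64 (SE 0.20) for Zfp867 and -0.61 (SE 0.21) for Zfp626 and Zfp472. Zfp37 had -0.55 (SE 0.18), Zfp27 -0.54 (SE 0.16), Zfp760 -0.51 (SE 0.17) and Zfp426 -0.41 (SE 0.13) in the authors' deposited table. By the authors' DESeq2 test, adjusted p lay between 0.020 for Zfp160 and 0.049 for Zfp931 in the KRAB genes outside the 5 named with the smallest values.

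The 2 Zbtb names in the list differ in kind. Zbtb20, with 5 C2H2 patterns, is described above. For Zbtb8os the authors' deposited table gave -0.35 (SE 0.12), the smallest decrease of the 22. It encodes archease, a cofactor of the tRNA ligase complex, is named for lying opposite a Zbtb8 gene, and holds 0 finger patterns. It shares 264 bp of exon with Zbtb8a on the other strand.

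Among the genes that were higher in cHet than in cKO, Zfp143 had the largest value, 0.68 (SE 0.21) in the authors' deposited table, a ratio of 1.60. It encodes an activator that binds many housekeeping promoters. Zfp423, whose protein binds EBF and SMAD factors and is needed for cerebellar development in mouse, had 0.53 (SE 0.15) in the authors' deposited table. With 27 C2H2 patterns it had the longest array of the 34. Zfp598, a ubiquitin ligase that senses collided ribosomes and so is not a transcription factor, had 0.46 (SE 0.14), also by the authors' deposited table.

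The other C2H2 genes without KRAB had 0.54 (SE 0.14) for Zfp553, 0.43 (SE 0.13) for Zfp740, 0.41 (SE 0.13) for Zfp629 and 0.40 (SE 0.13) for Zfp362 in the authors' deposited table. Zscan22, with a SCAN match, had 0.50 (SE 0.17) in the authors' deposited table. Of the 35 annotated genes of these names with a SCAN match, 2 were listed as higher, Zscan22 and Zkscan17. This is 5.71%, with 0 lower. Listed in either direction were 4.09% of all protein-coding genes and 7.26% of genes in the adjustment, and listed as higher 1.9% and 3.12%. A count of 2 is too small to set apart from these shares. The 3 higher KRAB genes were Zkscan17, Zfp84 with 0.58 (SE 0.15) and Zfp777 with 0.50 (SE 0.16) in the authors' deposited table. Zfp553, Zfp84 and Zkscan17 had an adjusted p under 0.01 (0.0099, 0.0094 and 0.0081, authors' DESeq2 test), which Zfp606 was the only lower gene to reach.

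Finger number was also set beside direction. The median number of C2H2 patterns was 12 for the 22 lower genes, with a range of 0 to 21, and 7 for the 12 higher genes, with a range of 0 to 27. The ranges overlap almost wholly. Over the annotation the median was 12 in KRAB genes of these names and 6 in the others.

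**Figure D4:**
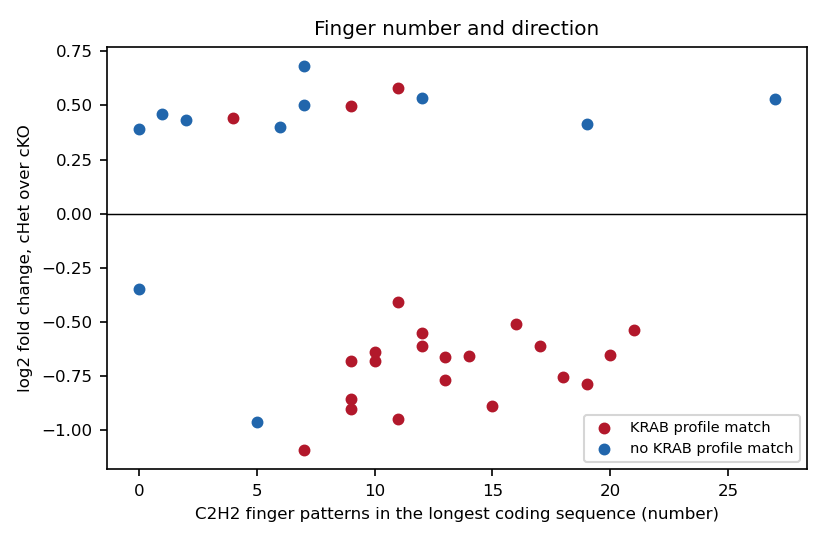
Number of C2H2 finger patterns in the longest annotated coding sequence (horizontal axis) against the log2 fold change of cHet over cKO (vertical axis), 1 point per listed gene, coloured by KRAB match. The lower KRAB genes hold 7 to 21 patterns, and the higher genes spread from 0 to 27.

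Exon length did not separate the zinc finger genes as it did the whole list. Median exonic length was 4438 bp over the lower and 3935.5 bp over the higher zinc finger genes. For all listed protein-coding genes the corresponding medians were 3067 bp (481 lower) and 5575.5 bp (416 higher). Coding length was 1737 bp in the lower and 1764 bp in the higher zinc finger genes, beside 681 and 2155.5 bp over all listed protein-coding genes. All 50 listed pseudogenes were lower in cHet than in cKO, and none of the 34 is a pseudogene.

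The listed genes lie on 13 chromosomes. Chromosome 17 holds 6 lower and 1 higher, and chromosome 7 has 3 lower and 5 higher, of 51 and 107 annotated protein-coding genes of these names. On chromosome 17, Zfp160, Zfp51, Zfp760 and Zfp943 lie in this order within 1.06 Mb (chr17:21008903-22071168), a stretch with 15 annotated C2H2 genes, 14 of them with KRAB. Of these 15, only the 4 were listed, and all 4 were lower. Genes of other kinds in the stretch were not counted. Over all genes in the adjustment, 7.26% were listed and 4.14% were lower. The stretch was bounded by listed genes, so its count cannot be weighed against these shares. Zfp811 and Zfp472, 156 kb apart further along the chromosome, were lower too, as were Zfp874a and Zfp738, 207 kb apart on chromosome 13.

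Close neighbours did not always share a direction. Of 13 pairs of listed zinc finger genes within 1 Mb, 9 had the same direction and 4 opposite ones, with 6 of the 9 coming from the 4 genes on chromosome 17. Zfp867 and Zkscan17 lie 13.0 kb apart on chromosome 11, and Zfp867 had -0.64 where Zkscan17 had 0.44 in the authors' deposited table. Zfp84 and Zfp27, 114 kb apart on chromosome 7, had 0.58 and -0.54, and both encode KRAB proteins. Zfp606 (chr7:12478293-12496235) and Zscan22 (chr7:12897815-12909083) had -0.66 and 0.50 in the authors' deposited table. None of the 10 protein-coding genes of these names on chromosome 10, which carries Zbtb7a, was listed. Beside the 7.26% of genes in the adjustment listed for cHet against cKO, 10 genes are too few to show an absence.

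Reads of some genes cannot be assigned with certainty. In 7 of the 34, all lower, a transcript matched another gene at 95% identity or more over at least 300 bp. Zfp931 matched 11 other genes, including Gm14410 and Gm14325, which were listed as lower too. Zfp932 matched Gm15446 at 97.4% over 1765 bp, and Zfp874a matched Zfp874b at 97.7% over 997 bp. Without the 7 genes, 12 higher and 15 lower were left, with 14 KRAB genes lower and 3 higher. Strandedness is not given, and 55.9% of the exonic length of Zfp36l1 is shared with Gm26669 on the opposite strand, as is 13.5% of that of Zkscan17 with 4933439C10Rik. Values of these genes may hold reads of their partners.

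30 of the 34 genes were listed against cKO and not against WT, 10 higher and 20 lower. The threshold was not the same in the tables, since the smallest listed absolute statistic was 3.36 for cHet against WT and 2.91 for cHet against cKO. Of the 30, 21 had a statistic against cKO that would not have reached the table against WT. The other 9 were Zfp943, Zfp386, Zfp51, Zfp811, Zfp160, Zfp740, Zfp423, Zfp553 and Zfp84. Being listed in 1 table only does not show that the comparisons differ, and that difference was not tested.

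The promoters of Zkscan17 and Zfp606, the higher and the lower gene with the smallest adjusted p against WT, are shown from RefSeq (GRCm38.p6), at chr11:59506591-59506890 on the minus strand and chr7:12478055-12478354 on the plus strand, each from 250 bases before to 50 after the start. The Zkscan17 window lies inside the longer gene of GENCODE M21 (chr11:59485520-59526751), so its start is not the outermost one annotated. Capitals mark GACCC and its reverse complement GGGTC, the core of a motif bound by human ZBTB7A.
Zkscan17: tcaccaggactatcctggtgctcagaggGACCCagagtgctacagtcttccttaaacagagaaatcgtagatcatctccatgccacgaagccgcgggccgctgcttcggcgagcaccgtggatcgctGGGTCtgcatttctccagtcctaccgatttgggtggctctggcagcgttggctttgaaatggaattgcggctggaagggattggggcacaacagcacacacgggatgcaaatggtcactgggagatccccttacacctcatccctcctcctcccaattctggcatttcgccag
Zfp606: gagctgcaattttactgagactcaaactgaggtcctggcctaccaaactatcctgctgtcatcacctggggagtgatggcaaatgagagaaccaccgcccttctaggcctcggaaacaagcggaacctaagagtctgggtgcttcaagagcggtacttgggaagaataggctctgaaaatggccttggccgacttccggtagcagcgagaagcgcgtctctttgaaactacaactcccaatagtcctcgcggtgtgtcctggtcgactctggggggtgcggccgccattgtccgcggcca

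Zkscan17 holds 2 matches and Zfp606 holds 0. Of the 34 genes, 32 had a promoter in the table, some more than 1, giving 40 windows. GACCC on either strand was in 16 of the 40, or 40%, beside 43.9% of all 32851 promoters of the same length. It was in 7 of 16 windows of higher genes and 9 of 24 of lower genes. Median G and C content was 60.0% in windows of higher genes and 51.8% in those of lower genes, beside 52.7% over all promoters. A match is a description of letters and not a binding site.

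Genes that work with these factors were counted in 3 lists by function. Each list held at most 2 listed genes, too few to set apart from the 1.07% of all annotated protein-coding genes listed against WT and the 4.09% against cKO. Of 20 genes of the KRAB corepressor and HUSH silencing list, 1 was higher against WT and 2 against cKO, and none was lower. Uhrf1, which recruits the maintenance DNA methyltransferase, had 0.64 (SE 0.17) against WT and 0.58 (SE 0.17) against cKO in the authors' deposited table, and Atf7ip, a partner of Setdb1, had 0.45 (SE 0.15) against cKO. Trim28 and Setdb1 were not listed. Of 18 corepressor genes for BTB and SCAN factors, Tbl1x of the NCoR complex was the only listed one, at 0.45 (SE 0.12) against cKO in the authors' deposited table. Of 12 NuRD genes, Gatad2a was listed at 0.43 (SE 0.11) against WT and 0.34 (SE 0.11) against cKO in the authors' deposited table.

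Zinc finger genes of other names were counted in the same way. Of 80 genes of other names with KRAB and C2H2 matches, 7 were lower in cHet than in cKO and 0 higher, with log2 changes from -1.80 to -0.61. Gm14410, Gm14418, Gm14325 and Gm14326 among the 7 lie on chromosome 2, as Zfp931 does. Transcripts of Zfp931 closely match Gm14410 and Gm14325, so these genes are not separate from it. Gm4924, Gm5141 and 2610044O15Rik8 lie on chromosomes 10, 13 and 8 and had no such match with a listed Zfp, Zbtb, Zscan or Zkscan gene. All 7 values come from the same libraries, so they are not independent support. Of 166 with at least 2 C2H2 patterns and no KRAB match, 9 were higher and 3 lower. In the 89 annotated genes of the named list of such factors, 7 were higher and 2 lower against cKO, and 3 higher and 0 lower against WT. Beside them stand the 4.09% of all annotated protein-coding genes that were listed against cKO and the 1.07% against WT, with 7.26% and 1.6% of the genes in the adjustments. Fezf2, which specifies deep-layer cortical neurons, had 0.65 (SE 0.13) against WT and 0.64 (SE 0.13) against cKO in the authors' deposited table. Fezf2 was also counted among the cortical radial glia markers above. Wiz, a partner of the G9a methyltransferase, had 0.47 (SE 0.14) and 0.43 (SE 0.14), and Maz 0.37 (SE 0.10) against WT, in the authors' deposited table. Against cKO, Tshz3 had 0.57 (SE 0.17), Plagl2 0.43 (SE 0.14) and Klf13 0.35 (SE 0.11) in the authors' deposited table. The 3 lower genes of the 166 were Sp9 at -4.56 (SE 1.40), Sall3 at -1.22 (SE 0.41) and Scrt1 at -0.47 (SE 0.14) in the authors' deposited table. Sp9 was also counted among the ventral telencephalon markers above. Sall3 and Scrt1 are also the 2 lower genes of the named list.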

How the data were processed

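Polyadenylated RNA of 9 libraries, 3 per group, was sequenced. Per the submitters' processing notes, the authors used cutadapt, featureCounts, mm10 and DESeq2, with no versions given. The aligner, the annotation and the strandedness of the kit were not given in the sources used here. The deposited files are the authors' tables for 3 comparisons. The deposited log2 fold changes and SEs were read as base 2 because the authors named DESeq2, and the sign as first-named group over second, which fits the direction words of all 248, 4 and 971 genes. The deposited statistic, a score, equalled fold change over SE. The deposited adjusted p-value was under 0.05 throughout. From it and the statistic, the genes in each Benjamini-Hochberg adjustment were recovered as 15465, 26976 and 13375, a step tested on 3 simulated sets. No counts or values per library were analysed here, so the planned count tests were not run.

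Positions, exons and transcripts came from GENCODE M21. The longest coding sequence of each gene was translated and searched for C2H2 and CCCH spacing. KRAB and SCAN matches had an E-value of at most 0.001 in HMMER 3.4, against profiles built from 193 and 28 pattern matches. Similar transcripts were found with BLAST 2.17.0. Calculations ran in Python 3.11.15 with pandas 2.3.3, SciPy 1.17.1, NumPy 2.4.6 and, for figures, matplotlib 3.10.9. 95% intervals are normal, from the deposited SE. The rule for named genes took shared members, those of smallest adjusted p or largest change, all Zbtb, Zscan and Zkscan members and at most 6 per related list. The remaining members were named after their values were seen, to account for each. The members and lists were chosen with earlier results of these data known. Alternatives were a stricter p, Bonferroni, a minimum change, name and protein rules and similar transcripts.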

Additional observations from a re-analysis of the deposited data

How the results depend on the processing

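At an adjusted p under 0.01, 0 zinc finger genes were left for cHet against WT, higher or lower, and so 0 shared with cHet against cKO. For cHet against cKO, 4 were left, 3 higher and 1 lower. Of the KRAB genes among these, Zfp606 was lower and Zkscan17 and Zfp84 were higher. The split by KRAB was thus not seen among the 4, which are too few to decide whether it holds. With Bonferroni adjustment 0 were left in each comparison and direction. A minimum absolute log2 change of 0.5 left 2 genes for cHet against WT, 0 higher, and 2 shared ones, and for cHet against cKO it left 5 higher, with 20 lower. Requiring a C2H2 pattern, chosen after seeing the data in place of a protein table not used here, left 1 higher gene against WT. Protein-coding genes only and a looser name rule changed no count. No fold change altered under these alternatives, since the deposited values were kept. Every single value lost its call under Bonferroni, and 34 of 38 did so at 0.01. Leaving out libraries, DESeq2 and other scalings were not run, and no paired analysis was possible because the tables hold no values per library. Depth per library is unknown, so what it limits cannot be stated.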

Other observations

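Of the KRAB zinc finger genes of other names that were listed, those near Zfp931 and those near Zbtb7a are given first. They were picked after their values were seen. On chromosome 2, Gm14410, Gm14418, Gm14325 and Gm14326 lie between 177183453 and 177957297 (GRCm38), before Zfp931, which starts at 178067695. Gm14326 is the nearest to it, and Gm14410, which ends at 177206421, the furthest. All 4 were lower in cHet than in cKO, with log2 changes of -1.08 (SE 0.35), -1.80 (SE 0.52), -0.91 (SE 0.31) and -1.10 (SE 0.34) in the authors' deposited table. Zfp931 matched Gm14410 and Gm14325 closely, so reads of these genes cannot be assigned with certainty.

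On chromosome 10, 3 KRAB zinc finger genes near Zbtb7a were listed, each in a different comparison. How many annotated KRAB genes lie within that distance was not counted, so the 3 do not show a cluster around Zbtb7a. Among all genes in the adjustments, the listed share was 7.26% (cHet over cKO), 1.6% (cHet over WT) and 0.0148% (cKO over WT). In the authors' deposited table, Gm32687, 0.711 Mb from Zbtb7a, had -7.31 (SE 1.28) for cKO over WT. Gm4924, 1.20 Mb away, had -0.94 (SE 0.28) for cHet over cKO in the authors' deposited table. 2610008E11Rik, 2.04 Mb away, had -0.41 (SE 0.12) for cHet over WT in the authors' deposited table. Klf16, a zinc finger gene without a KRAB match, lies closer to Zbtb7a than these 3, at 0.558 Mb. It was higher, at 0.43 (SE 0.14) for cHet over cKO in the authors' deposited table. None of the 10 protein-coding genes with Zfp, Zbtb, Zscan or Zkscan names on this chromosome was listed in any of the 3 comparisons.

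The remaining listed KRAB zinc finger genes of other names were Gm5141 on chromosome 13 and 2610044O15Rik8 on chromosome 8. For cHet over cKO they had -0.74 (SE 0.25) and -0.61 (SE 0.21) in the authors' deposited table.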
